A study of Homo sapiens with 16 samples.

Results

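The voltage-gated and potassium channel genes of the GRC1 cell line were taken from the deposited expression table by name. Every row whose symbol began with CACNA1, CACNA2D, CACNB, CACNG or KCN was used, together with the sodium channel genes named SCN, a number and A or B. Names with a hyphen, 17 rows of antisense and readthrough transcripts, were left out. This gave 131 channel rows of 39007 rows in all. Of these, 34 had a mean above 1 CPM (counts scaled to the total of a library) over the 16 libraries, 81 were detected with a mean at or below 1 CPM, and 16 were listed at 0 in every library. GRC1 is a line made from T24 human bladder cancer cells by stepwise exposure to gemcitabine, a nucleoside analogue used in chemotherapy, and RNA was sequenced in 4 libraries of each of 4 phases, which are called P0 (parental T24), P3 (early), P7 (intermediate) and P15 (late). All cells grew in the same serum-containing medium. The labels do not say whether the libraries of a phase came from separate cultures, so the p-values measure only the spread between these libraries. GRC1 is 1 line, and no other selection from T24 was compared here.

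Voltage-gated channels open when the membrane potential changes. In calcium channels, an α1 subunit forms the pore, and the α2δ and β subunits bring it to the membrane and tune it, whereas most of the γ proteins are better known as partners of glutamate receptors. Sodium channels likewise have a pore-forming α and a regulatory β subunit. Potassium channels set the resting potential and end electrical activity: voltage-gated, calcium-activated, inward rectifier and 2-pore-domain channels differ in what opens them, and auxiliary subunits modify them. Bladder epithelium is not an excitable tissue, but epithelial and tumour cells use potassium channels in volume control, migration and cell division.

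The libraries held at least 33.6 M counts each by the steps between low values, where 1 count was worth 0.02 to 0.0297 CPM and 69.4 to 72.8% of the low values lay on even counts, so that the number of independent read pairs may be lower, and the median log2(CPM + 1) of the tested genes was 4.85 to 4.93 in every library. The values are given as log2(CPM + 1), the scale of the deposited table, on which a difference understates the change of a low gene. A pair of libraries of the same phase differed by a median of 0.06 to 0.1 per gene, and a pair from different phases by 0.18 to 0.58. Late phase P15 stood apart in its epithelial markers as well. Of 12 urothelial and epithelial marker genes, 6 were tested and 5 were lower at P15 than at P0, including KRT7 (mean of 957 CPM at P0 and 11.5 CPM at P15) and GATA3 (36.2 and 1.43 CPM). KRT18 was the tested marker not called, being under the 2-fold threshold, with 471 and 633 CPM (difference 0.43, adjusted p = 7.4e-11). Summed over the list, these markers reached 2090 to 2170 CPM at P0 and 695 to 772 CPM at P15. The 7 neuronal markers summed to 2.32 to 3.85 CPM at P0 and 7.71 to 9.1 CPM at P15, the 4 muscle markers in the table to 0.444 to 0.807 and 1.03 to 1.78 CPM, and the defining markers STMN2, NEFL, TNNT2, HBB and PTPRC lay at or near 0 in all phases. Of the neuronal list, SNAP25 had 0.103 CPM at P0 and 1.82 CPM at P15, and TUBB3 2.66 and 5.56 CPM. Of the uroplakins, which define mature urothelium, UPK1B and UPK3A were at or near 0 throughout, UPK2 had 0.84 CPM at P0 and 0.593 CPM at P15, and UPK1A had 0.0749 and 1.98 CPM. The part of these shifts in the channel results was not tested. In bulk libraries, fewer cells that express a gene and less RNA per cell cannot be told apart.

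Phases were compared with limma over the 13249 rows with a mean above 1 CPM, and a gene was called at a Benjamini-Hochberg adjusted p below 0.05 with a difference of at least 1 on the log2 scale. At P15 against P0, 16 of the 34 tested channel genes were called higher and 12 lower, while 12.1% of all tested genes were called higher and 11.4% lower. Among genes with a mean of 1 to 25 CPM, where 32 of the 34 lie, 31.6% of all genes were called in either direction, against 26 channel genes. Of the 34, however, 9 passed the filter on low values through a single phase with a mean above 1 CPM and so had to differ, and the counts describe these genes without setting the group apart. Of the 16 called higher, 11 had a P0 mean at or below 1 CPM, and of the 12 called lower, 7 had a P15 mean at or below 1 CPM. With only genes above 1 CPM in all 16 libraries, 10 channel genes were left and 3 were called higher and 3 lower. The share of all genes called under that filter was not computed, and the shares above do not apply to it. The median difference of the 34 was 0.39 (0.04 over all tested genes) and their median absolute difference was 2.22 (0.51). In none of the 28 called genes did the P15 and P0 libraries overlap. A call already needs a difference of at least 1, and overlap was not counted over all called genes, so this does not set them apart.

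**Figure D1:**
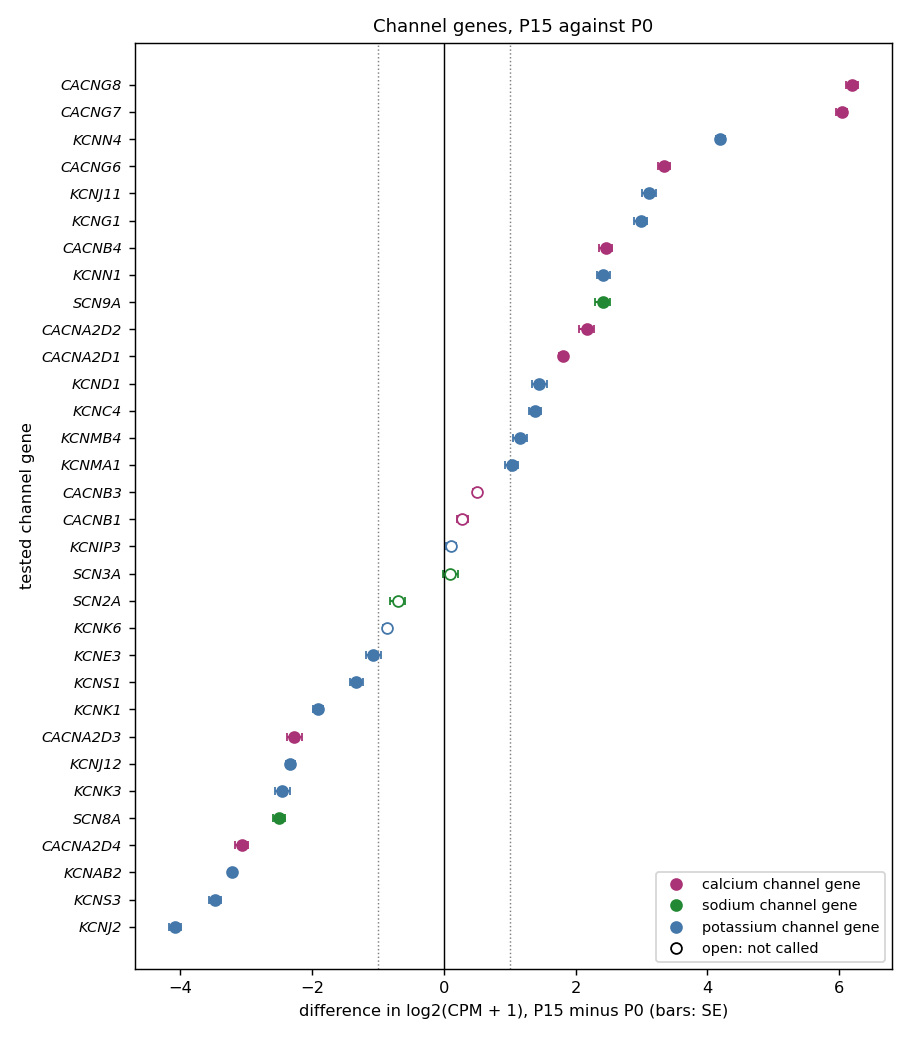
Difference in log2(CPM + 1) between late phase P15 and parental phase P0 for 32 of the 34 tested channel genes (4 libraries per phase; bars, SE; filled points, called; dotted lines, a difference of 1). The genes run from KCNJ2 at -4.08 to CACNG8 at 6.2, with 6 open points between -0.87 and 0.5.

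The largest rises were in the calcium channel γ genes. CACNG8 and CACNG7 encode proteins that bind AMPA-type glutamate receptors in neurons, and CACNG6 encodes a γ protein of the calcium channel family. CACNG8 had 0.34, 0.44, 0.3 and 0.29 at P0 and 6.47, 6.55, 6.64 and 6.49 at P15, a difference of 6.2 (SE 0.09, adjusted p = 2.0e-26). In CPM, its phase means were 0.269 at P0, 0.118 at P3, 0.0516 at P7 and 92.0 at P15. The gene thus stayed well below 1 CPM on average in the first 3 phases and was abundant in all 4 late libraries. CACNG7 had 0.07, 0.41, 0.43 and 0.15 at P0 and 6.3, 6.33, 6.32 and 6.28 at P15 (difference 6.04, SE 0.09, adjusted p = 5.9e-26). CACNG6 had 0.07, 0.0, 0.23 and 0.0 at P0 and 3.25, 3.5, 3.46 and 3.48 at P15 (difference 3.35, SE 0.09, adjusted p = 1.7e-20). For neither gene did the late libraries come near any library of the other phases, whose highest value was 0.43 for CACNG7 and 0.24 for CACNG6. CACNG8, CACNG7 and CACNG6 passed the filter through P15 alone and so had to differ. The other 4 γ genes had no mean above 1 CPM in any phase, and 2 of them were listed at 0 throughout.

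These 3 genes are neighbours on chromosome 19 (GRCh38, GENCODE 44), all on the plus strand: CACNG7 at chr19:53909278-53943950, CACNG8 at chr19:53962937-53990215 and CACNG6 at chr19:53991637-54012666. The end of CACNG7 lies 19.0 kb before CACNG8, and CACNG6 begins 1.4 kb after the end of CACNG8. Within 150.0 kb on either side of the CACNG8 start, 11 genes of the table lie in whole or in part, of which 9 were tested. Of the 9, 7 were called higher at P15 than at P0 and none lower, beside 12.1% and 11.4% of all tested genes. The 3 γ genes, which had to differ, are among the 7. OSCAR, an immunoglobulin-like receptor of osteoclasts, starts at 139.8 kb from CACNG8 and went from 20.6 to 311 CPM. MYADM (log2 difference 0.91) and TFPT (0.03) were not called. NLRP12 and TARM1, which were not tested, had P15 means of 0.168 and 0.101 CPM. Several, but not all, of the genes around the γ genes thus rose as well. Among the other channel genes that lie next to each other, SCN9A rose while its neighbours SCN1A and SCN7A stayed at or near 0, and CACNA2D4 fell while CACNA1C beside it was at or near 0 in every phase. The adjoining genes SCN3A and SCN2A were both called lower at P15 against P7 (differences of -1.8 and -1.1), and neither was called against P0.

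**Figure D2:**
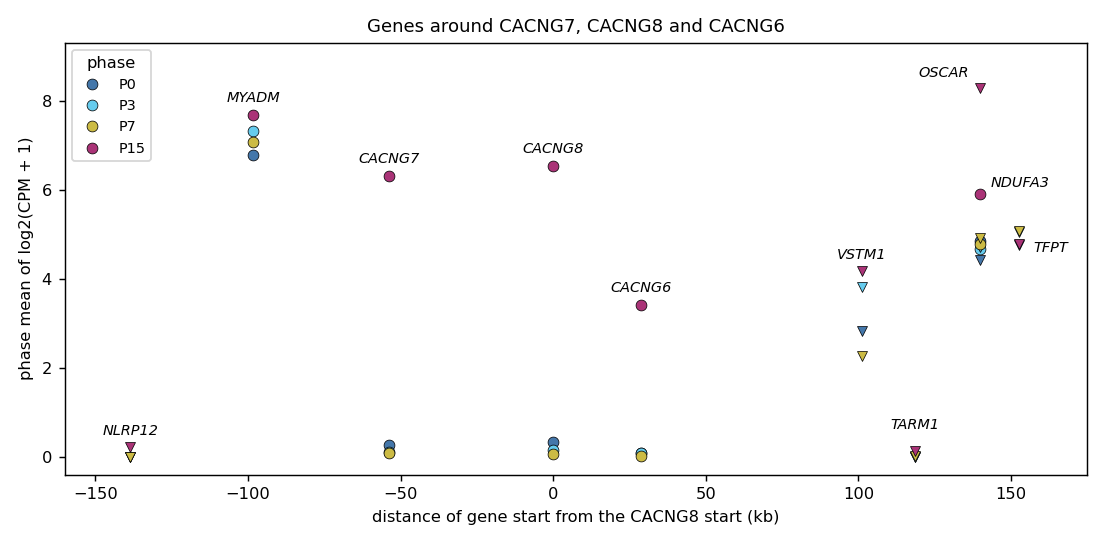
Phase means of log2(CPM + 1) for 10 genes of the table around CACNG7, CACNG8 and CACNG6, by the distance of each gene's start from that of CACNG8 in kb (circles, plus strand; triangles, minus strand). CACNG7, CACNG8 and CACNG6 lie below 0.4 in the first 3 phases and between 3.42 and 6.54 at P15.

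The other calcium channel subunits moved in both directions. All 4 α2δ genes were tested. CACNA2D1, a widely expressed member and the binding site of gabapentin, had 3.34, 3.28, 3.32 and 3.19 at P0 and 5.09, 5.02, 5.24 and 5.04 at P15 (difference 1.81, SE 0.06, adjusted p = 8.8e-19), with 4.05, 4.01, 3.96 and 4.06 at P3 and 3.41, 3.58, 3.58 and 3.59 at P7. CACNA2D2 had 0.37, 0.29, 0.61 and 0.42 at P0 and 2.63, 2.47, 2.65 and 2.64 at P15 (difference 2.17, SE 0.11, adjusted p = 1.6e-15). Neither gene overlapped between P0 and P15. CACNA2D4 went the other way, from 3.08, 3.25, 3.09 and 3.26 at P0 to 0.0, 0.0, 0.26 and 0.15 at P15 (difference -3.07, SE 0.1, adjusted p = 2.0e-19). CACNA2D3 fell from 2.82, 2.75, 2.41 and 2.58 to 0.59, 0.22, 0.47 and 0.21 (difference -2.27, SE 0.11, adjusted p = 1.4e-15). The α2δ genes thus split evenly, with CACNA2D1 and CACNA2D2 higher and CACNA2D3 and CACNA2D4 lower at P15. Over all tested genes, 12.1% were called higher and 11.4% lower. CACNA2D2 passed the filter through P15 alone and so had to differ. In GENCODE 44, 5.4% of the exon bases of CACNA2D3 are shared with antisense transcripts, and no strand setting of the counting is given in the sources used here.

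Of the β genes, which encode the cytoplasmic subunits that carry the pore to the membrane, CACNB4 was called. This gene passed the filter through P15 alone and so had to differ. It had 0.21, 0.15, 0.23 and 0.0 at P0 and 2.57, 2.61, 2.8 and 2.47 at P15 (difference 2.46, SE 0.1, adjusted p = 1.3e-17), and it did not differ between P0, P3 and P7 by more than 0.02 on the log2 scale. CACNB3, the β gene with the highest level per kb, had a mean of 23.7 CPM at P0, 13.3 at P3, 16.9 at P7 and 33.8 at P15. Its difference at P15 of 0.5 (SE 0.06, adjusted p = 1.0e-08) stayed under the threshold of 1 although the libraries of the 2 phases did not overlap. CACNB1 differed by 0.28 (SE 0.08, adjusted p = 0.0029), with overlapping libraries.

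None of the 9 α1 genes, which form the pore, passed the filter. The highest was CACNA1G, which encodes a T-type channel that opens at low voltage, with 0.28, 0.22, 0.16 and 0.15 at P0 and 1.55, 1.66, 1.96 and 1.73 at P15. Fitted without the filter, it differed by 1.52 (SE 0.1, adjusted p = 1.0e-09 over all rows above 0), and its P15 libraries lay above all others. CACNA1A had its highest phase mean at P7 (0.738 CPM), and CACNA1H its highest at P15 (0.494 CPM). Levels between genes were compared per kilobase of annotated exon. Summed over the genes of a role, the α1 genes had 0.0457 ± 0.00766 CPM per kb at P0 and 0.305 ± 0.0641 at P15 (SD, n = 4), the β genes 4.34 ± 0.398 and 6.17 ± 0.091, and the α2δ genes 3.2 ± 0.169 and 4.48 ± 0.331. The γ genes had 0.126 ± 0.0739 CPM per kb at P0 and 41.6 ± 1.08 at P15. At P0 the β and α2δ sums were above the γ and α1 sums in every library, and at P15 the γ sum was the highest and the α1 sum the lowest.

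**Figure D3:**
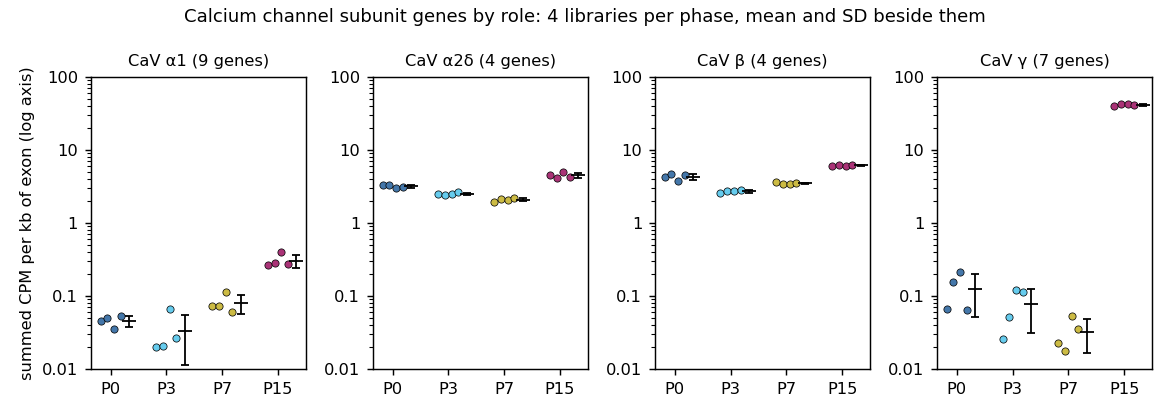
Summed CPM per kb of exon (log axis) of the calcium channel genes by role and phase, with 1 point per library and the mean and SD beside them. The γ sum lies below the β and α2δ sums until P7 and at 41.6 on average at P15, whereas the α1 sum stays below the β and α2δ sums in every phase.

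Among potassium channels, 3 of the 8 calcium- or sodium-activated genes passed the filter, and all 3 were called higher at P15, beside 12.1% of all tested genes. KCNN1 passed the filter through P15 alone and so had to differ. KCNN4 encodes the intermediate-conductance channel that epithelial cells and lymphocytes use. It had 3.77, 3.69, 3.68 and 3.86 at P0, 2.95, 2.9, 2.87 and 3.24 at P3, 3.95, 4.02, 4.17 and 4.13 at P7, and 7.9, 8.07, 7.89 and 7.95 at P15. Its mean went from 12.5 CPM at P0 to 247 CPM at P15 (difference 4.2, SE 0.07, adjusted p = 6.4e-25), with no overlap between any pair of phases. KCNN1, a small-conductance channel, had 0.07, 0.25, 0.12 and 0.19 at P0 and 2.55, 2.59, 2.53 and 2.62 at P15 (difference 2.42, SE 0.1, adjusted p = 3.7e-17). KCNMA1, the pore of the large-conductance channel, rose by 1.03 (SE 0.1, adjusted p = 1.6e-09; 0.97 without replicate 2 of P15 and 0.99 without replicate 2 of P0, under the threshold), and KCNMB4, one of its β subunits, by 1.16 (SE 0.11, adjusted p = 8.7e-10). KCNN3, another small-conductance channel below the filter, had the opposite course, with 1.78, 1.91, 1.44 and 1.86 at P0 and at most 0.6 in any later library. Without the filter its difference to P0 was -1.62 at P3 (SE 0.09, adjusted p = 4.0e-10) and -1.57 at P15 (SE 0.09, adjusted p = 1.1e-10).

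Several other potassium channel genes rose at P15 from a low level. KCNJ11, the pore of the ATP-sensitive channel that couples metabolism to membrane potential, had 0.56, 0.68, 0.71 and 0.35 at P0, 0.14, 0.0, 0.0 and 0.07 at P7, and 3.83, 3.84, 3.48 and 3.63 at P15 (difference to P0 3.12, SE 0.11, adjusted p = 1.4e-18). KCNG1, an electrically silent subunit that modifies other voltage-gated channels, had 0.31, 0.35, 0.08 and 0.08 at P0 and 3.25, 3.33, 3.02 and 3.19 at P15 (difference 2.99, SE 0.1, adjusted p = 6.0e-19). Neither gene overlapped between P15 and any other phase. KCND1 and KCNC4, both pore-forming voltage-gated channels, rose by 1.45 and 1.39 against P0. Of the 36 voltage-gated potassium channel rows, 6 were tested, with 4 called higher and 2 lower, beside 12.1% and 11.4% of all tested genes. KCNJ11 and KCNG1 passed the filter through P15 alone and so had to differ.

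The largest falls at P15 were in inward rectifier, silent and auxiliary subunits. KCNJ2, the inward rectifier that stabilises the resting potential in many cells, had 5.03, 5.26, 5.01 and 5.08 at P0 and 1.24, 0.77, 1.19 and 0.88 at P15 (difference -4.08, SE 0.09, adjusted p = 3.8e-22), or 33.3 and 1.05 CPM on average. KCNJ12, a close relative, had 3.38, 3.46, 3.35 and 3.42 at P0 and 1.18, 0.99, 1.1 and 1.01 at P15 (difference -2.33, SE 0.07, adjusted p = 9.5e-20). Of the 16 inward rectifier rows 3 were tested, and KCNJ11 alone of them rose. The 1 called higher and 2 called lower stand beside 12.1% and 11.4% of all tested genes. The KCNJ12 value is uncertain in that its near-identical paralog KCNJ18 was listed at 0 in all libraries, so reads from both copies may have been counted on 1 of them. KCNS3, a silent voltage-gated subunit, had 3.79, 3.45, 3.67 and 3.44 at P0 and 0.26, 0.07, 0.0 and 0.12 at P15 (difference -3.48, SE 0.09, adjusted p = 1.3e-21), and its relative KCNS1 fell by 1.33 (SE 0.1, adjusted p = 1.5e-11).

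KCNAB2, a cytoplasmic β subunit of voltage-gated channels with the fold of an aldo-keto reductase, had the highest level per kb of the tested channel genes before P15. It had 8.05, 8.0, 7.96 and 8.05 at P0, 7.44, 7.4, 7.49 and 7.4 at P3, 8.57, 8.48, 8.57 and 8.55 at P7, and 4.8, 4.94, 4.83 and 4.65 at P15. Its mean fell from 258 CPM at P0 to 27.0 CPM at P15 (difference -3.21, SE 0.04, adjusted p = 9.1e-27). The 4 phases did not overlap, and both the lower level at P3 and the higher level at P7 against P0 were under the threshold of 1. KCNE3, a small auxiliary subunit that keeps an epithelial potassium channel open, had 1.16, 1.09, 1.36 and 0.69 at P0 and 1.75, 1.79, 1.58 and 1.78 at P7 and was listed at 0 in all 4 libraries of P15, so no fold is given. Without replicate 3 of P0 its log2 difference was -0.98 and it was no longer called. In GENCODE 44, 16.9% of its exon bases are shared with a gene on the other strand.

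Of the 12 rows of 2-pore-domain channels, which carry the background potassium current, 3 were tested. At P15 against P0, 2 were called lower and 0 higher, beside 11.4% and 12.1% of all tested genes. KCNK1 had 4.52, 4.66, 4.51 and 4.44 at P0 and 2.83, 2.73, 2.46 and 2.48 at P15 (difference -1.91, SE 0.08, adjusted p = 1.9e-17). KCNK3, an acid-sensitive member, had 2.9, 3.16, 2.56 and 2.75 at P0 and 0.38, 0.36, 0.53 and 0.29 at P15 (difference -2.45, SE 0.12, adjusted p = 1.9e-15). KCNK6 had 4.76, 4.64, 4.8 and 4.77 at P0 and 3.94, 3.91, 3.84 and 3.8 at P15. Its difference of -0.87 (SE 0.06, adjusted p = 9.8e-13) missed the threshold of 1 although the libraries did not overlap. KCNK5, an alkali-activated member below the filter, had 0.56, 0.63, 0.52 and 0.64 at P0 and 1.36, 1.43, 1.14 and 1.31 at P3 and was listed at 0 in all 4 libraries of P15. The summed level of the 12 rows of this role was 55.2 ± 1.49 CPM at P0, 51.3 ± 1.15 at P3, 54.0 ± 1.76 at P7 and 19.8 ± 1.32 at P15 (SD, n = 4).

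**Figure D4:**
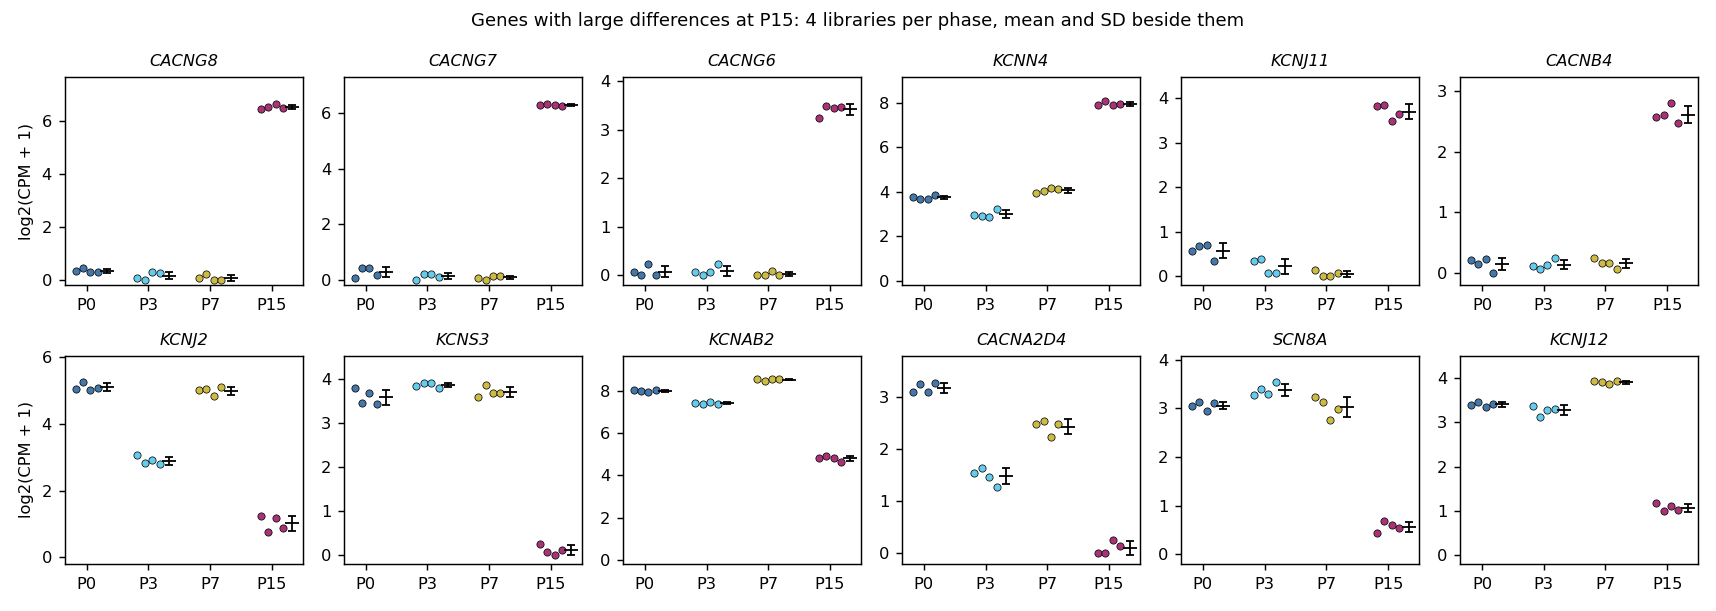
log2(CPM + 1) of 12 channel genes with large differences at P15, by phase (points, 4 libraries per phase; bar, mean with SD). In the upper row the P15 libraries lie above all others, and in the lower row they lie below all others, whereas KCNJ2 and CACNA2D4 also dip at P3.

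Sodium channel genes changed in different directions and at different phases. SCN8A, an α subunit of brain and also of some tumour cells, had 3.05, 3.13, 2.95 and 3.1 at P0, 3.28, 3.39, 3.29 and 3.55 at P3 and 0.44, 0.68, 0.59 and 0.53 at P15 (difference to P0 -2.5, SE 0.09, adjusted p = 7.7e-18). SCN9A, the α subunit of pain-sensing neurons, had 0.88, 0.89, 1.11 and 0.66 at P0 and 3.43, 3.16, 3.2 and 3.39 at P15 (difference 2.41, SE 0.11, adjusted p = 4.9e-16). The P15 libraries of the 2 genes lay on opposite sides of all others. In GENCODE 44, 11.4% of the exon bases of SCN9A are shared with an antisense gene. SCN3A, an α subunit of the developing brain, was high only in the middle of the series, with 0.68, 0.58, 0.55 and 0.26 at P0, 2.29, 2.21, 2.32 and 2.25 at P3, 2.26, 2.37, 2.49 and 2.53 at P7, and 0.32, 0.86, 0.71 and 0.57 at P15. It rose by 1.75 at P3 (SE 0.11, adjusted p = 1.1e-12) and by 1.9 at P7 (SE 0.11, adjusted p = 3.3e-13), and the P15 and P0 libraries overlapped (difference 0.1, SE 0.11, adjusted p = 0.41). SCN2A, whose gene lies beside SCN3A, differed by -0.7 at P15 against P0 (SE 0.11, adjusted p = 1.4e-06). It was not called there, being under the threshold of 1, although the libraries did not overlap. Against P7 it was called lower at P15 (difference -1.1, SE 0.11, adjusted p = 7.3e-10).

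Before P15 fewer channel genes differed. At P3 against P0, 2 of the 34 were called higher and 3 lower, while 1.95% of all tested genes were called higher and 2.51% lower. At P7 against P0, 1 was called higher and 1 lower (1.86% and 1.52% of all tested genes), and at P7 against P3, 4 were called higher and 1 lower (0.989% and 0.845%). These 3 comparisons share libraries. The genes that changed mostly dipped or peaked at P3. KCNJ2 had 3.05, 2.83, 2.9 and 2.78 at P3, below P0 by 2.21 on the log2 scale (SE 0.09, adjusted p = 7.2e-16), and 5.02, 5.04, 4.82 and 5.09 at P7, where it overlapped with P0. KCNK3 had 1.43, 0.92, 1.01 and 1.0 at P3 (difference to P0 -1.75, SE 0.12, adjusted p = 6.6e-12) and 2.7, 2.68, 2.86 and 3.0 at P7, again within the P0 range. Both genes were thus low at P3, back at P7 and lowest at P15. CACNA2D4 had 1.54, 1.63, 1.47 and 1.27 at P3 (difference -1.69, SE 0.1, adjusted p = 1.8e-13) and 2.48, 2.53, 2.23 and 2.47 at P7, between P3 and P0.

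KCNC4, a fast-inactivating voltage-gated channel, had the inverse course, with 2.43, 2.56, 2.56 and 2.69 at P0, 3.95, 4.21, 3.97 and 3.98 at P3, 2.43, 2.7, 2.77 and 2.73 at P7 and 3.9, 4.01, 4.08 and 3.8 at P15. It was called higher at P3 than at P0 (difference 1.47, SE 0.09, adjusted p = 2.5e-13) and lower at P7 than at P3 (difference -1.37, SE 0.09, adjusted p = 2.4e-12), and the P3 and P15 libraries overlapped. CACNA2D3 fell at each phase instead, with 1.79, 1.74, 2.02 and 2.05 at P3 and 1.16, 1.25, 1.42 and 1.34 at P7, and was called at P7 against P0 (difference -1.35, SE 0.11, adjusted p = 2.0e-10). KCNN4 and KCNAB2 were called higher at P7 than at P3, by 1.08 and 1.11, with KCNJ2 (2.1) and KCNK3 (1.72).

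**Figure D5:**
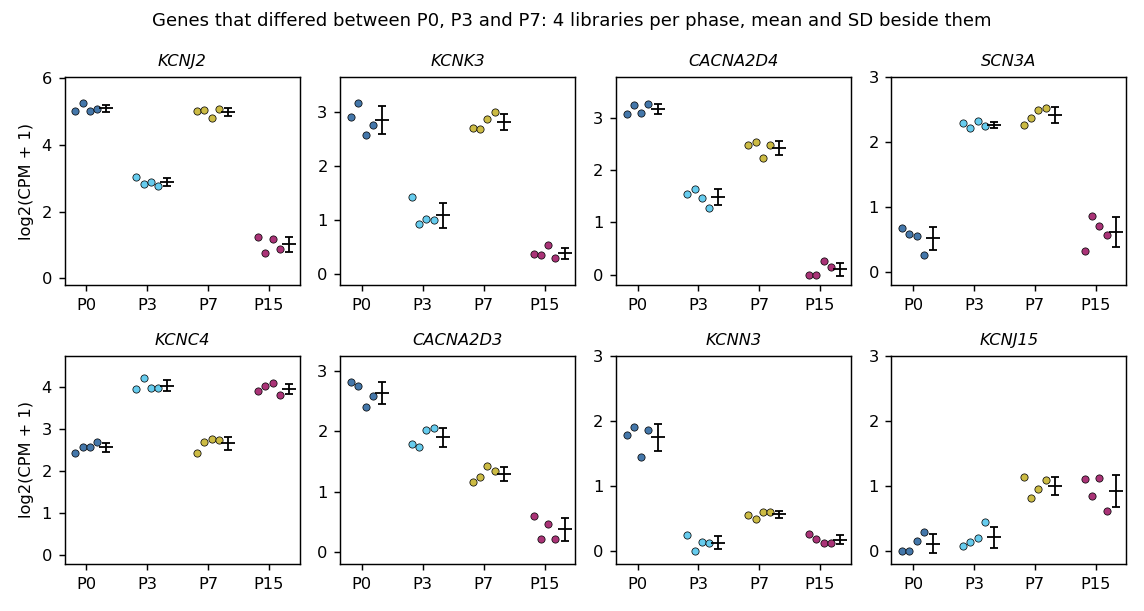
log2(CPM + 1) of 8 channel genes that differed between P0, P3 and P7 (points, 4 libraries per phase; bar, mean with SD). KCNJ2, KCNK3 and CACNA2D4 are low at P3, KCNC4 is high at P3 and P15, SCN3A is high at P3 and P7, and KCNN3 and KCNJ15 lie below the filter on low values.

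At P15 against P7, 14 channel genes were called higher and 13 lower, while 13.4% of all tested genes were called higher and 12.1% lower. This comparison shares the P15 libraries with the one against P0. Of the 16 genes higher than at P0, 14 were also called higher than at P7, and of the 12 lower, 11 were also called lower. KCNMA1 and KCNMB4 (differences of 0.93 and 0.88) and CACNA2D3 (-0.92) were the exceptions, because they were past the threshold of 1 only against P0. The share called in both comparisons was not computed over all genes, so these counts do not set the channel genes apart. By phase, 16 channel genes were highest at P15, with an adjusted p below 0.05 against each other phase (37.2% of all tested genes), and 14 were lowest there (32.3%). The highest phase was P0 for CACNA2D3 and CACNA2D4, P3 for SCN8A and KCNK1, and P7 for 4 genes, among them KCNJ12, KCNAB2 and KCNE3. The same pattern was met by 10.8% of all tested genes at P0, 10.3% at P3 and 7.43% at P7.

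Of the 97 channel rows at or below 1 CPM on average, 72 were above 0 but never reached a phase mean above 1 CPM, and 9 exceeded it in at least 1 phase. Besides CACNA1G, KCNN3 and KCNK5, these were KCNH3, KCNAB3, KCNAB1, KCNJ14, KCNJ15 and KCNIP2. KCNH3, a voltage-gated channel of forebrain neurons, had 0.21, 0.0, 0.2 and 0.29 at P0 and 2.13, 2.03, 2.08 and 1.98 at P15 (difference 1.88 without the filter, SE 0.08, adjusted p = 2.1e-12). KCNJ14, an inward rectifier, rose by 1.05 (SE 0.09, adjusted p = 1.5e-08), with 30.6% of its exon bases shared with 3 other genes. KCNJ15, also an inward rectifier, had 0.0, 0.0, 0.16 and 0.29 at P0 and 1.13, 0.82, 0.96 and 1.09 at P7, an increase of 0.89 (SE 0.12, adjusted p = 1.3e-05) that stayed under the threshold of 1. KCNAB1, KCNAB3 and KCNIP2, auxiliary subunits, had phase means of 0.465 to 1.12 CPM and were not called in any comparison.

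Per kilobase of exon, the order of the channel genes changed at P15. At P0 KCNAB2 led with 14.4 to 15.3 CPM per kb over its libraries, followed by KCNK1 with 5.87 to 6.88 and KCNJ2 with 5.6 to 6.69, which overlapped each other. KCNAB2 and KCNK1 also had the first 2 places at P3 and at P7, and at P7 KCNK1 and KCNJ2 again overlapped. At P15 KCNN4 led with 75.6 to 85.7 CPM per kb, followed by CACNG7 with 26.8 to 27.7, CACNG8 with 9.9 to 11.2, CACNB3 with 4.62 to 4.79, and CACNG6 and CACNA2D1, which overlapped at 3.4 to 4.12 and 3.43 to 4.01. KCNAB2 was in place 9 of 34 at P15, and KCNN4 in place 5 at P0. The lengths are the union of all annotated exons, so the level of a gene with many isoforms is understated.

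Genes that act with the channels were taken from a list apart from the 131 rows. Of 10 tested partners, 2 were called higher at P15 than at P0 and none lower, beside 12.1% and 11.4% of all tested genes. STAC, an adaptor that binds L-type calcium channels, went from 0.389 to 11.3 CPM (difference 3.14, SE 0.09, adjusted p = 5.2e-20), and GEM, a small GTPase that binds the β subunits and lowers calcium current, from 6.29 to 13.6 CPM, with a difference at the threshold (1.0, SE 0.09). Of 7 tested channels of related families, 3 were lower and none higher, beside the same 11.4% and 12.1%, among them NALCN, the sodium leak channel, which went from 29.2 to 3.7 CPM after 62.5 CPM at P7. Of 8 tested store-operated and release channels, 1 was higher and 1 lower, close to the 12.1% and 11.4% of all tested genes. ITPR1 (the inositol trisphosphate receptor, 6.77 to 23.3 CPM) was the higher one. ORAI2, a store-operated channel, was the lower one (difference -1.6, SE 0.04, adjusted p = 2.0e-20). REST, a repressor of neuronal genes including channel genes, had 57.2 CPM at P0 and 46.9 CPM at P15, and its cofactor RCOR1 61.3 and 84.8 CPM, and neither was called.

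The promoter sequences available for the channel genes are shown for 6 of the named genes, so that the DNA before the start sites can be set beside the genes that rose and fell together. RefSeq promoter windows (GRCh38.p14) were matched by symbol for 91 of the 131 channel rows and for 10 of the 16 genes called higher and 8 of the 12 called lower at P15. CACNG7 and CACNG8 had no entry. The 250 bases before the RefSeq start are printed 5′ to 3′ on the strand of the gene for windows at the annotated gene start, from which that of KCNN4 lies 3 bases away. CACNB4 has 4 further windows and KCNS3 1, which are not printed. Capitals mark matches on either strand to 6 motifs. The SP1 box was searched as GGGCGG. The sites of AP-1 factors were searched as TGANTCA. The full site of CREB, the factor of the cyclic AMP response, was searched as TGACGTCA. The E-box of the MYC family was searched as CACGTG. The box of the TATA-binding protein was searched as TATAAA. For REST, the stretch TTCAGCACC from its element was searched. CACNG6 (chr19:53991387-53991636, plus strand), KCNN4 (chr19:43780974-43781223, minus strand), CACNB4 (chr2:152099168-152099417, minus strand) and CACNA2D1 (chr7:82443957-82444206, minus strand) were higher at P15, and KCNS3 (chr2:17877597-17877846, plus strand) and KCNK3 (chr2:26692472-26692721, plus strand) were lower.
CACNG6: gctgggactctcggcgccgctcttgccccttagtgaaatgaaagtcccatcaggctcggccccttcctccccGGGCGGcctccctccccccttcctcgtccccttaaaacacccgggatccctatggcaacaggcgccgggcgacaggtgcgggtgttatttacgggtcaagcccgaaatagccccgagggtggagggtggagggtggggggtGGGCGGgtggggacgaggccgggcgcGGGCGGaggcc
KCNN4: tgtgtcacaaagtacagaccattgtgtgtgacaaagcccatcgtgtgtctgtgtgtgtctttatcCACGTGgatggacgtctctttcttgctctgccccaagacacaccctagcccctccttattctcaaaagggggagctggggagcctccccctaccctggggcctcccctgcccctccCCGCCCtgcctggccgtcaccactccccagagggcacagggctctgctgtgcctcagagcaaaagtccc
CACNB4: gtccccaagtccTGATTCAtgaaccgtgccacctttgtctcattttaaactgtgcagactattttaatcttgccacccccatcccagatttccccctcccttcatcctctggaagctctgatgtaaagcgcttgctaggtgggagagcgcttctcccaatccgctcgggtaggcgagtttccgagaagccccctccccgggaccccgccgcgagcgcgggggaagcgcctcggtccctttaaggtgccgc
CACNA2D1: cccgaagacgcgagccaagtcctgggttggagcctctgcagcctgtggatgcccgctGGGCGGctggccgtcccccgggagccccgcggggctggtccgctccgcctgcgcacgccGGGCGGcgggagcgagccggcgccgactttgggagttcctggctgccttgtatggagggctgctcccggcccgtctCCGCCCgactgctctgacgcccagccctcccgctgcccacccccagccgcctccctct
KCNS3: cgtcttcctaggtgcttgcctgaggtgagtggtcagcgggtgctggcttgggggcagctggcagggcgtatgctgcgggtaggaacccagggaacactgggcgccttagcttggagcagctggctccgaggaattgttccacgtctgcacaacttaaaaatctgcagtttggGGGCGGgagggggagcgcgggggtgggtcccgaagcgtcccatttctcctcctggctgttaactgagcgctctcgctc
KCNK3: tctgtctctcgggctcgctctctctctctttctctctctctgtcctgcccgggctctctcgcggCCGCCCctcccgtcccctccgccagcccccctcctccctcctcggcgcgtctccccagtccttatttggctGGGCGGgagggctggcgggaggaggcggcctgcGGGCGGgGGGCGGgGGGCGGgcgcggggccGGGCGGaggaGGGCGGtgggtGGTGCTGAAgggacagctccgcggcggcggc

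The CACNG6 window held GGGCGG at 3 places and the CACNA2D1 window at 3, the KCNS3 window at 1 and the KCNK3 window at 7, so the motif stood before genes that rose and genes that fell. The KCNN4 window held the SP1 box and the E-box 1 time each. The CACNB4 window printed held only an AP-1 match, whereas 2 other windows of this gene held the SP1 box, as did the second window of KCNS3 at 6 places. The KCNK3 window also held the REST stretch, on the strand opposite to the gene, with its first base at -31 from the start. The content of G and C was 69.2% in the CACNG6 window, 60.0% in KCNN4, 58.8% in CACNB4, 75.6% in CACNA2D1, 62.4% in KCNS3 and 76.4% in KCNK3. GGGCGG was found in 42.6% of all 35116 windows of this length and in 51.4% of the 140 channel windows, of which genes with several starts have more than 1. Over the windows of the genes called at P15, 12 of 17 windows of the higher genes and 8 of 12 windows of the lower genes held it. The AP-1 letters were found in 6.57% of all windows, the CREB letters in 1.65%, the E-box in 6.34%, the TATA box in 10.7% and the REST stretch in 0.288%, the last also in 3 of the 140 channel windows. A match is a description of the letters only.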

How the data were processed

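RNA of 16 libraries of T24 and GRC1 cells, 4 per phase, was sequenced as read pairs. Reads were aligned by the authors with STAR (version 2.6.1a per the submitters' processing notes) to GRCh38 and assigned to genes with featureCounts. The deposited table gives log2(CPM + 1) with 2 decimals for 39007 symbols. It holds no raw counts, and depth was judged from the steps between its lowest values. The annotation release, the strand setting and the treatment of multi-mapped reads are not given in the sources used here. Lengths and positions come from GENCODE 44, which held 130 of the 131 channel symbols. Of the deposited names, 27 were dates and 2 occurred more than once.

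limma 3.58.1 (R 4.3.3) was fitted to the log2 values of the 13249 rows above 1 CPM on average, with all 16 libraries in 1 model, a mean per phase, a variance trend and Benjamini-Hochberg adjustment. The procedure was tested on simulated data. A call also needed a log2 difference of 1 (2-fold in CPM + 1). Python 3.11.15, numpy 2.4.6, pandas 2.3.3 and matplotlib 3.10.9 made the tables and figures. The channel genes and the lists of partners and markers were chosen with earlier results of these data known. Genes were named by rule: the 8 largest called rises and 8 largest called falls at P15 against P0, the 3 largest called differences of each comparison among P0, P3 and P7, CACNA2D1, CACNA2D2, CACNA1G, CACNG6 and CACNB4, the genes at or below 1 CPM on average but above it in a phase, and the 5 highest per kb, 31 genes in all. Other genes given with values were picked after these were seen. Some genes that enter the counts are not reported here by name. Groups come from the phase label, and replicate numbers from the description, which differ from the NT numbers of the titles for 14 libraries. The titles also end in an S number, and some of these recur between phases. Whether sequencing runs differed between phases was not tested. The alternatives tried were pseudocounts of 0.1 and 5, stricter and looser filters, quantile and median scaling, replicate blocks, a fit without the trend or on each pair of phases, limma's treat test, calls on p alone, each library left out, and P15 by its library NT1 alone.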

Additional observations from a re-analysis of the deposited data

Results flagged for a closer look

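For the 31 named genes, the 4 libraries of each phase were searched for a single library far from the others, as the gap to its nearest neighbour divided by the range of the group (the statistic of Dixon's test). Of 123 groups, 7 were past its critical value, and chance flags about 1 in 20, or 6 of them. They came from 6 libraries. Replicate 1 of P15 was lowest for CACNG6 (3.25 against 3.46 to 3.5, ratio 0.84), and replicate 2 of P15 was lowest for CACNA2D2 (2.47 against 2.63 to 2.65, ratio 0.89). Replicate 3 of P15 was highest for KCNAB3 (1.26 against 1.0 to 1.03, ratio 0.88). In P7, replicate 1 was lowest for CACNA2D1 (3.41 against 3.58 to 3.59, ratio 0.94), and replicate 3 was highest for KCNK1 (4.66 against 4.45 to 4.48, ratio 0.86) and for CACNG6 (0.08 against 0.0 in the others, ratio 1.0), the latter within a few counts of 0. In P3, replicate 2 was highest for KCNC4 (4.21 against 3.95 to 3.98, ratio 0.88).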

How the results depend on the processing

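The calls of the named genes, 52 over the 5 comparisons, kept their direction under each alternative that tested them, and the same 52 were called in each of the 16 fits that left out a library. Leaving out a library gave 15 to 16 genes higher and 11 to 12 lower at P15 against P0. With a pseudocount of 5, 19 of the 52 were no longer past the thresholds, with the treat test 3 and with quantile normalization 1. The median of all tested genes at P15 against P0 moved by less than 0.1 under each scaling. The replicate numbers of the descriptions did not pair the libraries (correlations of -0.15 to 0.22 over 24 pairs, 1 above 0.1), and neither did the title numbers (-0.12 to 0.22, 1 above 0.1). A replicate block by either number left the counts at 16 higher and 12 lower.

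Counts that moved by over 1.5 times are given as higher and lower. With genes above 1 CPM in all 16 libraries, which leaves 10 channel genes, they were 3 and 3 at P15 against P0, 3 and 3 at P15 against P7, 1 and 0 at P3 against P0, and 0 and 0 at P7 against P0, with 2 higher at P7 against P3; 3 genes were then highest and 4 lowest at P15, and 0, 1 and 2 were highest at P0, P3 and P7. With a pseudocount of 5 they were 8 higher at P15 against P0, 8 and 7 at P15 against P7, 1 and 1 at P3 against P0, 0 and 0 at P7 against P0, and 2 and 0 at P7 against P3. With a pseudocount of 0.1 they were 6 lower at P3 against P0, 3 and 4 at P7 against P0, and 7 higher at P7 against P3. Without the fold threshold they were 8 and 13 at P3 against P0, 10 and 7 at P7 against P0, and 13 and 7 at P7 against P3. With the treat test 0 were lower at P7 against P0 and 2 higher at P7 against P3. With no filter, or with genes above 1 CPM in at least 4 libraries, 2 were lower at P7 against P0, and with no filter 33 were highest at P15 and 6 at P0. Filters change which genes are tested, and the treat test and the missing fold threshold change the rule of a call; the cause of the other changes was not tested.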
